A study of Mus musculus with 15 samples.

Results

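The complement system was followed through 9 genes in tumor-associated macrophages (TAMs), namely the C1q chain genes C1qa, C1qb and C1qc, the components C3 and C4b, the alternative pathway genes Cfb and Cfp, and the anaphylatoxin receptor genes C3ar1 and C5ar1. They are the 9 rows of the deposited expression table that carry these symbols, out of 55335 genes, and each of the 9 had a value above 0 in all 15 samples. The table holds FPKM, fragments per kilobase of transcript scaled to the mapped fragments of the sample, so that levels of different genes are compared per length. TAMs were taken from orthotopic hepatocellular carcinoma in C57BL/6 mice, grown from luciferase-expressing Hepa1-6 cells, a mouse hepatoma line, which were injected into the liver, and the study's orthotopic tumors were examined 3 weeks later. The tumor cells carried a control lentivirus, a lentivirus for miR-144 or a lentivirus for miR-451a, and 5 samples of TAMs were sequenced for each of these 3 groups, named control, miR-144 and miR-451a here. The lentivirus was thus given to the tumor cells and not to the TAMs, whose miRNA levels were not measured here. All groups shared the strain, the cell line and its luciferase. The macrophages were sorted by CD11b and F4/80, and the age and sex of the mice are not given in the sources used here. The labels number the samples 1 to 5 in each group without saying that they came from separate mice, and the study's text gives a smaller n for its analysis of TAM RNA-seq, so some samples may share an animal or a preparation and p-values measure the spread between these samples, which may be technical.

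Complement is a cascade of plasma proteins that tags and lyses targets and recruits phagocytes. C1q binds immune complexes and dying cells and starts the classical pathway through C4 and C2, factor B (Cfb) and properdin (Cfp) form and stabilize the alternative pathway convertase, and both routes cleave C3 and then C5. Hepatocytes make most circulating complement, while C1q comes largely from macrophages, which also carry the receptors for the C3a and C5a fragments.

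The mature forms of the overexpressed miRNAs, as RefSeq lists them on mouse GRCm38.p6, are shown because they define the 2 treated groups. Capitals mark the seed, bases 2 to 8. The labels do not say which arm of miR-144 was meant, so both are given, and the insert of the lentivirus was not analysed here.
mmu-miR-144-5p: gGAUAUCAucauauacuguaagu
mmu-miR-144-3p: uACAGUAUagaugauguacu
mmu-miR-451a: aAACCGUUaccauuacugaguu
They lie next to each other on the plus strand, at chr11:78073010-78073032, chr11:78073047-78073066 and chr11:78073186-78073207, and the 3 seeds differ.

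The macrophage identity of the libraries was checked first. The 7 macrophage markers listed (Adgre1, Itgam, Csf1r, Cd68, Fcgr1, Mertk and Lyz2) summed to 8657 to 9465 FPKM in control, 14633 to 16504 in miR-144 and 14334 to 15509 in miR-451a. Lyz2 made up most of that sum, with means of 6894, 13171 and 12582 FPKM, and Cd68 stood the other way, at 1444, 919 and 910 FPKM with no overlap between control and the miRNA groups. Of the hepatocyte markers, 6 of 6 in the table were listed at 0 in all 15 samples, among them Alb. The Kupffer cell marker Clec4f was listed at 0 in all 15 as well, while Cd5l, another gene of resident liver macrophages, averaged 3.40, 29.8 and 27.1 FPKM in control, miR-144 and miR-451a. The fibroblast and stellate cell markers Col1a1, Col1a2, Dcn and Pdgfrb summed to 99.7 to 124, 136 to 197 and 172 to 217 FPKM. T cell, B cell, neutrophil and dendritic cell lists stayed at or under 1.31 FPKM in sum. The monocyte markers Ly6c2 and Ccr2 summed to 0.116 to 0.259 FPKM in control, 1.09 to 1.32 in miR-144 and 1.43 to 1.90 in miR-451a, most of it Ccr2, so the groups did not overlap at these low levels. The depth implied by the steps between low values was 15.5 to 30.3 M fragments per sample. Since these are bulk samples, fewer cells of a type and less RNA per cell cannot be told apart, and the part of the macrophage, monocyte, Cd5l and fibroblast levels in the results below was not tested.

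With miR-144 in the tumor cells, all 9 complement genes differed from control in the TAMs, 8 of them higher and C3 lower. With miR-451a, 8 of 9 differed in the same directions, 7 higher and C3 lower, and C5ar1 did not pass. The largest rises were those of C1qa, at 3.88-fold and 4.19-fold of control, and the C1q genes C1qb and C1qc rose by less, 1.79-fold to 1.86-fold. C3ar1 rose 1.52-fold and 1.5-fold, whereas C3, the central component of the cascade, went to 0.626 and 0.574 of its control level. All these folds are on the scale of log2(FPKM + 1), which understates the change of low genes.

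Calls are limma calls at an adjusted p under 0.05 (Benjamini-Hochberg over all genes tested). Over all 11419 genes averaging 1 FPKM or more, 67.2% were called for miR-144 and 68.3% for miR-451a, with 47.1% and 48.1% of all genes in the higher direction, so a call alone was common in these data. The 8 members above that mean were called in 8 and 7 cases. The samples of a comparison did not overlap for 9 and 8 of the 9 members, beside 53.9% and 55.2% of all genes above that mean. C4b lay under 1 FPKM and was taken from the fit over 29540 genes, where 32.8% and 34.2% were called. Over the 9 members the median log2 fold change was 0.60 for miR-144 and 0.67 for miR-451a, beside 0.13 and 0.14 over all tested genes. Both comparisons used the same 5 control samples, so they are not independent.

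**Figure D1:**
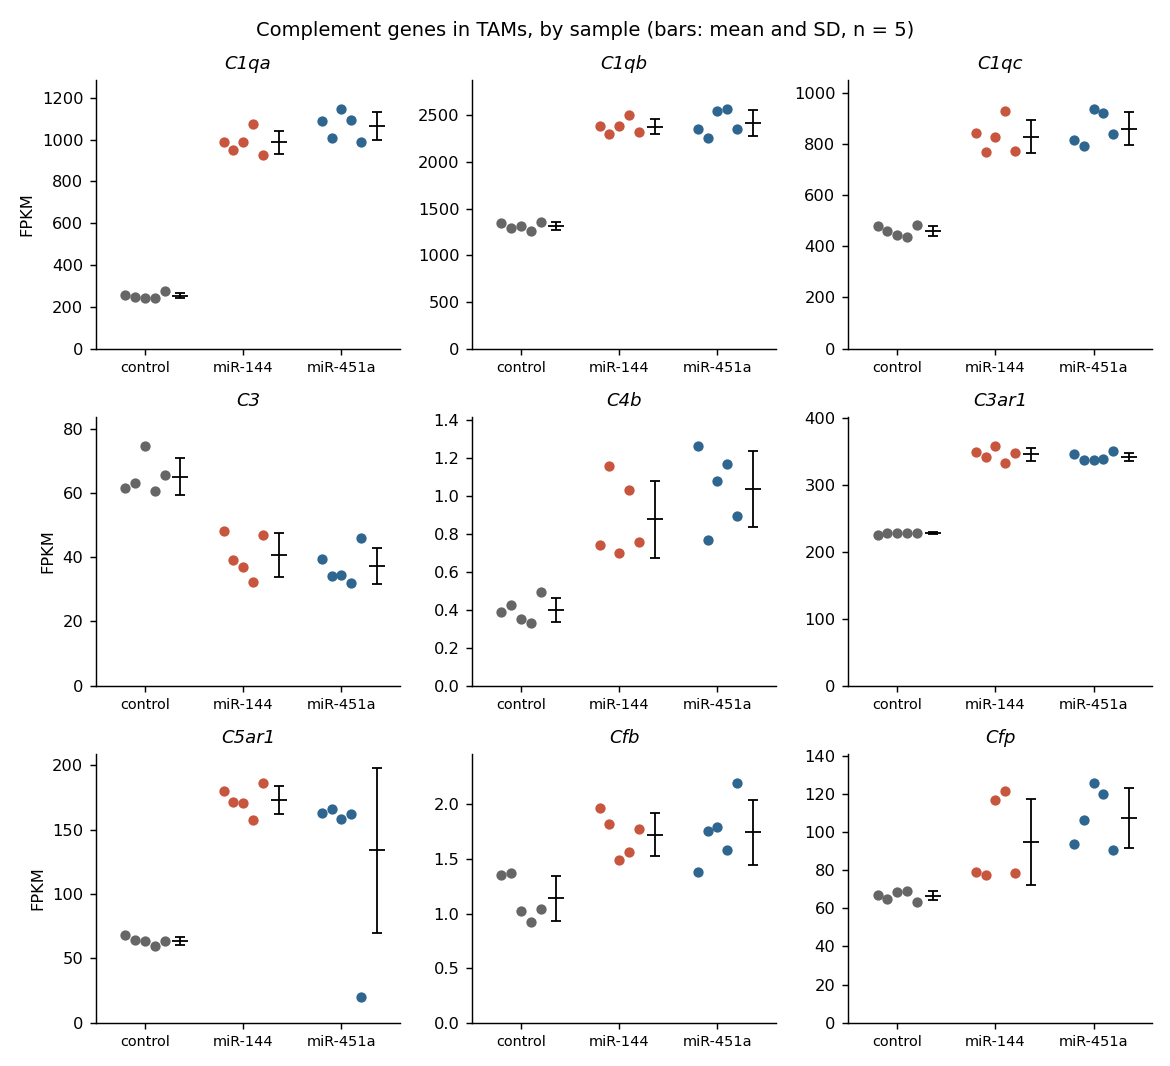
FPKM of each complement gene in the 15 samples, with a panel per gene, a linear axis from 0, points for samples in replicate order and a black mark for the mean with 1 SD (n = 5). C1qa, C1qb, C1qc and C3ar1 are higher in every miR-144 and miR-451a sample than in any control sample, C3 is lower in every one, and a single miR-451a sample of C5ar1 lies at 19.7 FPKM, under all control samples.

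The C1q molecule is assembled from the products of C1qa, C1qb and C1qc, which lie side by side on chromosome 4. In the GENCODE M21 annotation of GRCm38 all 3 are on the minus strand, C1qb at chr4:136880129-136886187, C1qc at chr4:136889804-136893065 and C1qa at chr4:136895917-136898803, each with 3 exons, within 18675 bases. None of their longest transcripts shared a 50-base stretch with another gene. C1qa (ENSMUSG00000036887), the A chain, was at 257, 248, 242, 244 and 274 FPKM in control, at 989, 952, 987, 1076 and 926 in miR-144 and at 1089, 1006, 1148, 1096 and 988 in miR-451a. Every miRNA sample was more than 3 times the highest control sample, and the miR-144 and miR-451a samples overlapped. C1qa rose by 1.96 on the log2 scale (SE 0.05, adjusted p = 8.39e-14) with miR-144 and by 2.07 (SE 0.05, adjusted p = 4.31e-14) with miR-451a.

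C1qb (ENSMUSG00000036905), the B chain and the most abundant member, was at 1342, 1295, 1317, 1255 and 1357 FPKM in control, at 2391, 2298, 2392, 2502 and 2322 in miR-144 and at 2350, 2252, 2545, 2574 and 2358 in miR-451a. The lowest miRNA sample lay well above the highest control sample. Its log2 fold change was 0.86 (SE 0.04, adjusted p = 8.27e-11) and 0.88 (SE 0.04, adjusted p = 5.94e-11). C1qc (ENSMUSG00000036896), the C chain, was at 480, 460, 445, 437 and 482 FPKM in control, at 842, 771, 829, 931 and 773 in miR-144 and at 817, 792, 940, 920 and 838 in miR-451a. Again no miRNA sample reached down to the control range. Its log2 fold change was 0.84 (SE 0.06, adjusted p = 6.43e-09) and 0.90 (SE 0.06, adjusted p = 2.88e-09), close to that of C1qb.

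The makeup of the C1q messages therefore differed between the groups. The summed FPKM of the 3 chain genes was 2027 ± 69.4 in control, 4196 ± 200 in miR-144 and 4342 ± 257 in miR-451a (mean ± SD, n = 5). C1qa made up 12.5% ± 0.33 of that sum in control, with a range over the samples of 12.1% to 13%, and 23.5% ± 0.31 in miR-144 and 24.5% ± 0.80 in miR-451a, where no sample was under 23.0%. The share of C1qb was 64.8%, 56.8% and 55.6%, and that of C1qc 22.7%, 19.7% and 19.8%. The ratio of C1qb to C1qc was 2.85 ± 0.07, 2.88 ± 0.13 and 2.81 ± 0.06, with overlapping samples in the 3 groups, whereas the ratio of C1qb to C1qa was 5.19 ± 0.17 in control and 2.42 ± 0.06 and 2.27 ± 0.10 in the miRNA groups. The shares and the order of C1qa and C1qc depend on the length used, since C1qc is divided by 1931 merged exon bases of 2 transcripts, the longest of which has 1203, while C1qa (1040) and C1qb (1088) have 1 transcript each. As deposited, C1qc lay above C1qa in every control sample and under it in every miRNA sample, but if all its fragments came from the longest transcript its means would be 740, 1331 and 1383 FPKM, above C1qa in all 15 samples. The share of C1qa would then be 11.0%, 20.98% and 21.9%, again with no overlap between control and the miRNA groups. These shares are descriptions, with no test of their own, although the 95% interval of the C1qa log2 fold change with miR-144 (1.85 to 2.07) lay above those of C1qb (0.77 to 0.95) and C1qc (0.72 to 0.97).

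**Figure D2:**
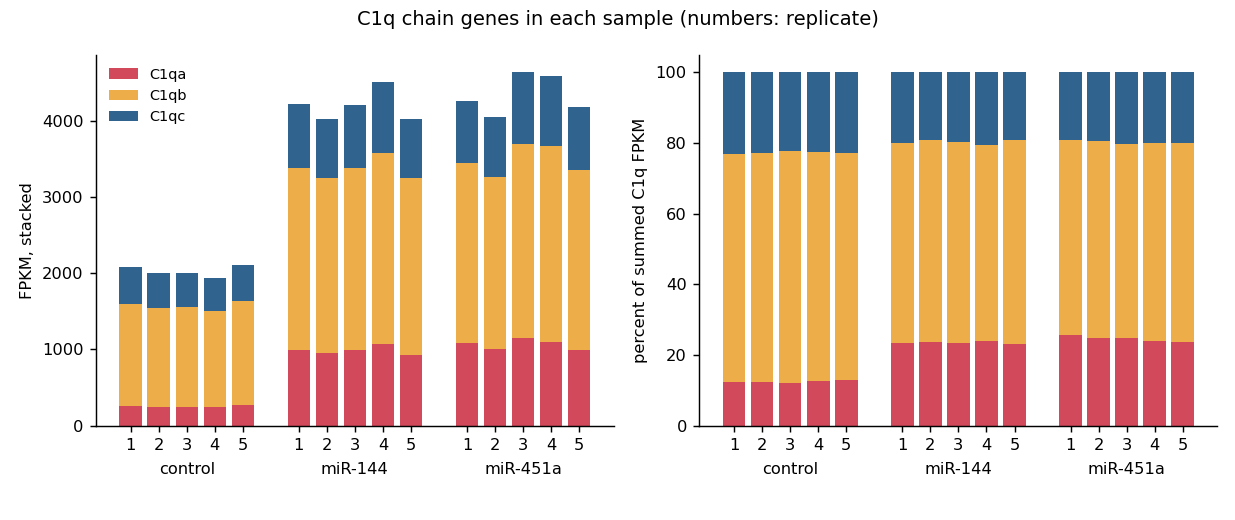
Levels of the C1q chain genes in each of the 15 samples, as stacked FPKM on the left (as deposited, per merged exon base) and as percent of the summed FPKM on the right, with replicate numbers under the bars. The sum is higher in the 10 miRNA samples, and C1qa takes 12.1% to 13% of it in control and 23.0% to 25.6% in the miRNA groups.

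Promoters were inspected because C1qb and C1qc changed alike while C3 changed in the opposite direction. The RefSeq table held the promoter of 6 of the 9 members (C1qb, C1qc, C3, C3ar1, C5ar1 and Cfp), and the 250 bases before the start that RefSeq gives were searched on both strands. RefSeq and GENCODE M21 place some starts differently, and the windows of C1qc, C5ar1 and C3ar1 reach 151, 202 and 4 bases into the gene as GENCODE M21 draws it. The windows of C1qb and C3, which hold no transcribed base of the gene, are shown 5′ to 3′ on the minus strand of GRCm38.p6, at chr4:136886201-136886450 and chr17:57228137-57228386, with motif matches in capitals.
C1qb: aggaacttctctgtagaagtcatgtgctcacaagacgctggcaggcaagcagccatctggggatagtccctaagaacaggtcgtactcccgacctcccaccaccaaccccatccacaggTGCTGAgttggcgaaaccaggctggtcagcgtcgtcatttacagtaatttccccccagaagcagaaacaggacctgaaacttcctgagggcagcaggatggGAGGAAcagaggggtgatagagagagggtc
C3: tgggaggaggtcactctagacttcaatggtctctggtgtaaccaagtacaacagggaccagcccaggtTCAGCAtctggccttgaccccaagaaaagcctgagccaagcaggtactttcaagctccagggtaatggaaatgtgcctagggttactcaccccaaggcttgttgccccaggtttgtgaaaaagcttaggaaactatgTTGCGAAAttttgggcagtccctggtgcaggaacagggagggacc
The letters GAGGAA, the core bound by the myeloid factor PU.1, occurred in C1qb, 30 bases before the RefSeq start, and in C1qc, 193 bases before the RefSeq start and 42 before that of GENCODE M21, as in 23.3% of 32851 promoters. TGCTGA, the half-site of Maf factors, occurred in C1qb, C3, C3ar1 and C5ar1, and in 16.1% of all promoters, with the match in C5ar1 lying inside the GENCODE M21 gene. TTGCGNAA, a C/EBP motif, occurred in C3 alone among the 6, 45 bases before the start, and in 0.670% of all promoters. A match describes letters and is not a measured binding site.

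C3 and C4b encode the thioester proteins that become covalently attached to targets. C3 (ENSMUSG00000024164, chr17:57203970-57228136, minus strand, 41 exons) was at 61.6, 63.1, 74.7, 60.5 and 65.7 FPKM in control, at 48.2, 39.2, 36.9, 32.4 and 46.9 in miR-144 and at 39.4, 34.1, 34.4, 31.9 and 45.9 in miR-451a. The highest miRNA sample lay under the lowest control sample, and the 2 miRNA groups covered nearly the same range. The log2 fold change of C3 was −0.68 (SE 0.11, adjusted p = 8.15e-05) and −0.80 (SE 0.11, adjusted p = 1.43e-05). C3 was the only member that fell, in a direction that 20.1% and 20.3% of all tested genes took. Markers of hepatocytes, which make C3 in quantity, were listed at 0 in all samples, as given above. The summed fibroblast and stellate cell markers were higher in the miRNA groups. The part of other cell types in the C3 level was not tested.

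C4b (ENSMUSG00000073418, chr17:34728380-34743882, minus strand), mouse complement C4, was a low gene, at 0.391, 0.424, 0.350, 0.332 and 0.495 FPKM in control, at 0.741, 1.16, 0.699, 1.03 and 0.759 in miR-144 and at 1.27, 0.771, 1.08, 1.17 and 0.897 in miR-451a. All 10 miRNA samples were above the control samples, and within each miRNA group the values varied by more than 1.5 times. On the log2 scale C4b rose by 0.42 with miR-144 (SE 0.08, adjusted p = 8.70e-04) and by 0.54 with miR-451a (SE 0.08, adjusted p = 9.18e-05). Its level is uncertain, because 35.2% of its 50-base stretches are also found in C4a, which averaged 0.087 to 0.145 FPKM in the 3 groups.

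Cfb and Cfp serve the alternative pathway. Cfb (ENSMUSG00000090231, chr17:34856374-34862518, minus strand), which supplies the protease of its convertase, was at 1.35, 1.37, 1.02, 0.922 and 1.04 FPKM in control, at 1.97, 1.82, 1.49, 1.56 and 1.77 in miR-144 and at 1.38, 1.75, 1.79, 1.58 and 2.20 in miR-451a. The groups were narrowly apart, since the lowest miR-451a sample barely exceeded the highest control sample. Cfb rose by a log2 fold change of 0.35 (SE 0.08, adjusted p = 0.00164) and 0.36 (SE 0.08, adjusted p = 0.00137). Under quantile normalization neither call held (0.17, adjusted p = 0.0868, and 0.16, adjusted p = 0.0981). Its transcript also shares 81.4% of its stretches with Gm20547, a gene model that overlaps it and was at most at 0.188 FPKM.

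Cfp (ENSMUSG00000001128, chrX:20925454-20931555, minus strand) encodes properdin, the positive regulator that stabilizes the alternative convertase. It was at 67.0, 64.9, 68.7, 68.8 and 63.4 FPKM in control, at 78.8, 77.6, 117, 122 and 78.7 in miR-144 and at 93.8, 106, 126, 120 and 90.3 in miR-451a. The control samples were close together, and all miRNA samples exceeded them. In miR-144 replicates 3 and 4 stood well above the other 3, and in miR-451a replicates 3 and 4 were the highest as well. For Cfp the log2 fold change was 0.47 (SE 0.13, adjusted p = 0.00537) and 0.67 (SE 0.13, adjusted p = 3.64e-04).

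The receptors of the anaphylatoxins C3a and C5a are G protein-coupled receptors of myeloid cells. C3ar1 (ENSMUSG00000040552, chr6:122847138-122856161, minus strand, 2 exons) was at 225, 228, 228, 228 and 229 FPKM in control, at 350, 342, 358, 332 and 347 in miR-144 and at 346, 337, 337, 338 and 351 in miR-451a. It varied little within a group, and the groups with miRNA stood clear of control. The coefficient of variation in control was 0.544%, beside a median of 7.06% over the tested genes. C3ar1 rose by 0.60 on the log2 scale (SE 0.02, adjusted p = 1.31e-11) and by 0.58 (SE 0.02, adjusted p = 1.73e-11).

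C5ar1 (ENSMUSG00000049130, chr7:16246743-16259540, minus strand, 2 exons) was at 68.1, 64.6, 63.8, 59.5 and 63.4 FPKM in control, at 180, 171, 170, 158 and 186 in miR-144 and at 163, 166, 158, 162 and 19.7 in miR-451a. The other 4 miR-451a samples lay within or near the miR-144 range, and replicate 5 lay under every control sample. With miR-144 the log2 fold change of C5ar1 was 1.42 (SE 0.44, adjusted p = 0.0108), and a two-sided exact permutation test of these 5 and 5 samples gave p = 0.00794, the smallest it can give. With miR-451a it was 0.74 (SE 0.44, adjusted p = 0.155), and the exact permutation test gave p = 0.365. Each sample was left out in turn, and without replicate 5 of miR-451a it was 1.33 (SE 0.05, adjusted p = 9.84e-12), the miR-144 value was 1.42 with SE 0.04 (adjusted p = 2.58e-12), and all 9 members were called in both comparisons. The implied number of C5ar1 fragments was at least 1181 in every sample, above the floor of 3. In that library 3 of 5112 genes above 7 FPKM in the other 4 lay at least 1.5 below all of them on the log2 scale, and the other 14 libraries had 0 to 3 such genes.

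**Figure D3:**
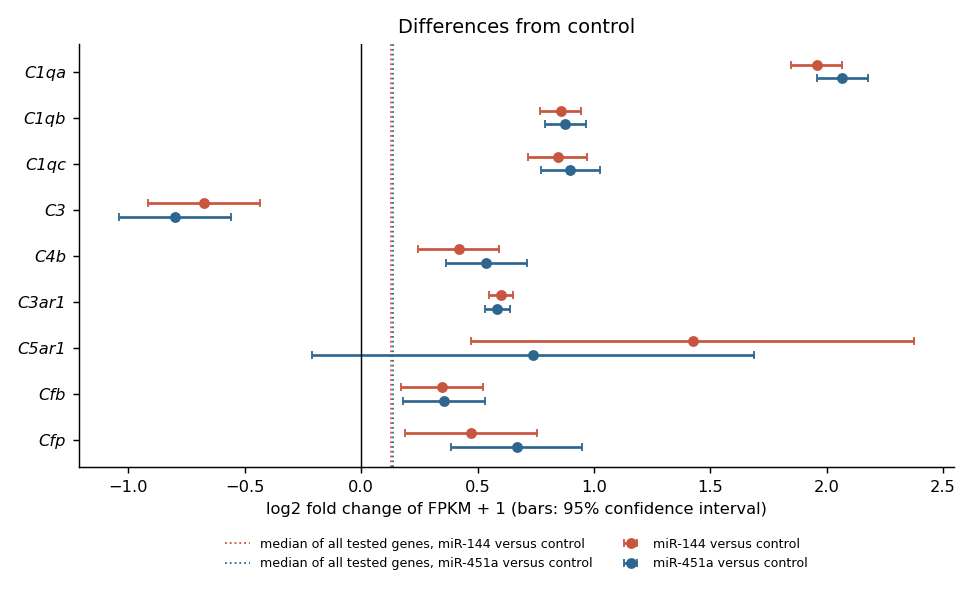
Log2 fold change of FPKM + 1 for the 9 complement genes, with miR-144 in red, miR-451a in blue, bars for the 95% confidence interval from limma (n = 5 per group) and dotted lines for the median over all tested genes. C1qa lies furthest right near 2, C3 alone lies left of 0, and the C5ar1 intervals, which include replicate 5 of miR-451a, are the widest.

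The members were also put in order of their level as deposited. In control the mean FPKM fell from C1qb (1313) to C1qc (461), C1qa (253), C3ar1 (228), Cfp (66.6), C3 (65.1), C5ar1 (63.8), Cfb (1.14) and C4b (0.399). Cfp, C3 and C5ar1 overlapped there, whereas all other neighbors in that order were apart in every sample. In miR-144 C5ar1 (173) stood above Cfp (94.7), and C3 (40.7) under both, while the order of C1qa (986) and C1qc (829) turns with the length used, as given above.

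TAMs of the miR-144 and miR-451a groups were also compared with each other. None of the 9 members passed (0 of 9), and over all 11419 genes 0% were called by limma and 5.22% had an unadjusted p under 0.05. The values of all 9 members overlapped between the groups, as did those of all genes but 0.849%. C1qa differed most by p, with a log2 difference of miR-451a minus miR-144 of 0.11 (SE 0.05, unadjusted p = 0.0477, adjusted p = 0.946). The 95% intervals of the difference were −0.07 to 0.11 for C1qb, −0.07 to 0.18 for C1qc, −0.37 to 0.12 for C3, −0.06 to 0.29 for C4b, −0.07 to 0.04 for C3ar1, −0.17 to 0.18 for Cfb and −0.09 to 0.48 for Cfp. For C5ar1 the interval was −1.64 to 0.27, and without replicate 5 of miR-451a the difference was −0.09 (SE 0.05). A missed threshold does not show that the groups act alike, since the interval of C5ar1 reached −1.64 with all samples and that of Cfp reached 0.48.

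The rest of the pathway was taken from a list of 47 other complement symbols, of which 46 were in the table on 47 rows. Most were low: 31 rows were under 1 FPKM in all 15 samples and 9 were listed at 0 in all of them, and 38 rows could be tested. Of these 38, 14 were called for miR-144 (11 higher, 3 lower) and 11 for miR-451a (8 higher, 3 lower). By level, 7 and 8 of the 15 rows averaging 1 FPKM or more were called, beside the 67.2% and 68.3% of all such genes given above, and 7 and 3 of the 23 lower rows, beside 32.8% and 34.2% in the fit without the filter. Of the rows averaging 1 FPKM or more, 4 rose and 3 fell with miR-144 and 5 rose and 3 fell with miR-451a, and under median centring 3 rose and 4 fell in each. Median centring subtracts 0.13 or 0.14 from the log2 value of every gene of a miRNA group relative to control, so that C9, at a log2 fold change of 0.00 with miR-144, is called lower (−0.13), and its calls are not read for rows under 1 FPKM. The median log2 fold change over the 38 was 0.01 and 0.00. Between the miRNA groups 0 of 38 were called, and 3 had an unadjusted p under 0.05.

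Of 12 tested initiation genes, 4 rose with miR-144 and 3 rose with miR-451a. C1ra, a protease of the C1 complex, averaged 2.85 ± 0.12, 3.71 ± 0.50 and 4.57 ± 0.51 FPKM (mean ± SD, n = 5) in control, miR-144 and miR-451a, with log2 fold changes of 0.28 (adjusted p = 0.00294) and 0.53 (adjusted p = 1.13e-05). The miR-144 call of C1ra was lost under median centring (0.15, adjusted p = 0.0728) and quantile normalization (0.13, adjusted p = 0.122). C1s1, its partner protease, averaged 0.978, 1.30 and 1.63 FPKM and passed with miR-451a (0.41, adjusted p = 0.00470) but not with miR-144 (0.21, adjusted p = 0.11), and it was lost under quantile normalization (0.21, adjusted p = 0.105). The ficolin gene Fcna averaged 6.72, 5.75 and 6.23 FPKM and the lectin pathway protease gene Masp1 averaged 1.17, 1.115 and 1.05, with neither called as deposited. Fcna was called lower in both comparisons under median centring (−0.33, adjusted p = 0.00295, and −0.24, adjusted p = 0.0202) and quantile normalization (−0.33, adjusted p = 0.00287, and −0.24, adjusted p = 0.02), and with miR-144 under the replicate block (adjusted p = 0.0160). Masp1 was called lower with miR-451a under quantile normalization (−0.28, adjusted p = 0.0386). The other calls here were of genes under 1 FPKM, C2 in both comparisons and C4a and Colec11 with miR-144. Under quantile normalization the miR-144 calls of C2 (0.09, adjusted p = 0.239) and C4a (0.04, adjusted p = 0.162) were lost, and with the replicate block that of Colec11 (adjusted p = 0.0505). The summed fibroblast markers given above were higher in the miRNA groups as well, and their part was not tested.

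The terminal components, which form the membrane attack complex, were nearly silent. None of 5 tested genes was called. The most abundant, C8g, averaged 1.003 FPKM in control, 1.19 in miR-144 and 1.26 in miR-451a, and with miR-451a it missed narrowly (0.17, adjusted p = 0.0512) and was called under TPM (0.32, adjusted p = 0.0185), without the trend (adjusted p = 0.0438) and in the fit of these groups alone (adjusted p = 0.0311). C6, C8a, C9 and Hc, the gene of C5, stayed at or under 0.025 FPKM in every sample.

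Among the inhibitors, 4 of 11 tested genes rose with miR-144 and 2 rose with miR-451a, under the scaling as deposited. Over all genes averaging 1 FPKM or more, 67.2% and 68.3% were called, and 32.8% and 34.2% in the fit without the filter. Cd46, Cd55 and Cfhr2 lay under 1 FPKM, and Cd55 and Cfhr2 were called with miR-144 only. Cfhr2 was at 0 in all control samples and averaged 0.069 FPKM in miR-144. Cd46, a cofactor for the breakdown of C3b and C4b, was in both counts and averaged 0.149, 0.275 and 0.348 FPKM in control, miR-144 and miR-451a, with log2 fold changes of 0.15 (adjusted p = 0.0152) and 0.23 (adjusted p = 7.04e-04). Its miR-144 call was lost under quantile normalization (0.10, adjusted p = 0.112). Serping1, the C1 inhibitor, averaged 8.30 ± 1.82, 9.68 ± 4.0 and 11.9 ± 3.61 FPKM and was not called (with the replicate block adjusted p = 0.0144 for miR-451a), nor was Cd59a, an inhibitor of the attack complex, at 2.61, 2.41 and 2.41.

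Of 10 tested receptor rows, 3 rose and 3 fell in each comparison with control, and the integrins among them gave the largest falls of the list. Itgax, the alpha chain of complement receptor 4 (CD11c), was at 90.4, 84.3, 106, 100 and 84.6 FPKM in control, at 3.34, 2.94, 4.56, 4.15 and 3.16 in miR-144 and at 3.09, 3.60, 3.84, 3.75 and 2.88 in miR-451a. No miRNA sample reached 5 FPKM. Itgax had a log2 fold change of −4.35 (SE 0.10, adjusted p = 1.80e-14) and −4.41 (SE 0.10, adjusted p = 1.53e-14). Itgb2, the beta chain that complement receptors 3 and 4 share, averaged 423 ± 24.1, 132 ± 4.09 and 127 ± 4.76 FPKM, with log2 fold changes of −1.67 (adjusted p = 3.15e-14) and −1.72 (adjusted p = 2.05e-14).

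Itgam, the alpha chain of complement receptor 3 (CD11b, which was also used in the sort), stands on 2 rows that share 72.4% or more of their sequence. The row ENSMUSG00000030786 was called in both comparisons (1.43, adjusted p = 0.00439, and 1.04, adjusted p = 0.0263), with samples from 9.99 to 38.8 FPKM in control, and its miR-451a call was lost under median centring (0.90, adjusted p = 0.0553) and without the filter (adjusted p = 0.0593). The row ENSMUSG00000108596, named Gm49368 in GENCODE M21, was not called (−0.14, adjusted p = 0.689, and 0.28, adjusted p = 0.420). Where one row was high in a sample the other was low, and their sum was narrow, at 73.3 to 78.5 FPKM in control, 103 to 119 in miR-144 and 109 to 120 in miR-451a. The sum was thus 1.46-fold and 1.53-fold of control, with an exact two-sided permutation p of 0.00794 each, the smallest these samples allow, and 0.190 between the miRNA groups. Summing was chosen after the values of both rows were seen.

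Cd93, a surface protein first described as a C1q receptor, averaged 77.6, 97.6 and 97.1 FPKM, with log2 fold changes of 0.32 (adjusted p = 8.66e-04) and 0.32 (adjusted p = 9.55e-04), the latter at 0.17 (adjusted p = 0.0507) under median centring. C1qbp, a mitochondrial protein that binds C1q, averaged 11.9, 10.4 and 10.8 FPKM, with log2 fold changes of −0.19 (adjusted p = 0.00125) and −0.14 (adjusted p = 0.0112), the latter at −0.06 (adjusted p = 0.226) under TPM. Cr1l, the mouse Crry gene, averaged 5.92, 5.97 and 5.82 FPKM and was not called. Vsig4, the complement receptor of Kupffer cells, averaged 0.118, 0.376 and 0.291 FPKM and passed in both (0.30, adjusted p = 0.00192, and 0.21, adjusted p = 0.0218), but its miR-451a call was lost under quantile normalization (0.16, adjusted p = 0.0836) and the replicate block (adjusted p = 0.0589).

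**Figure D4:**
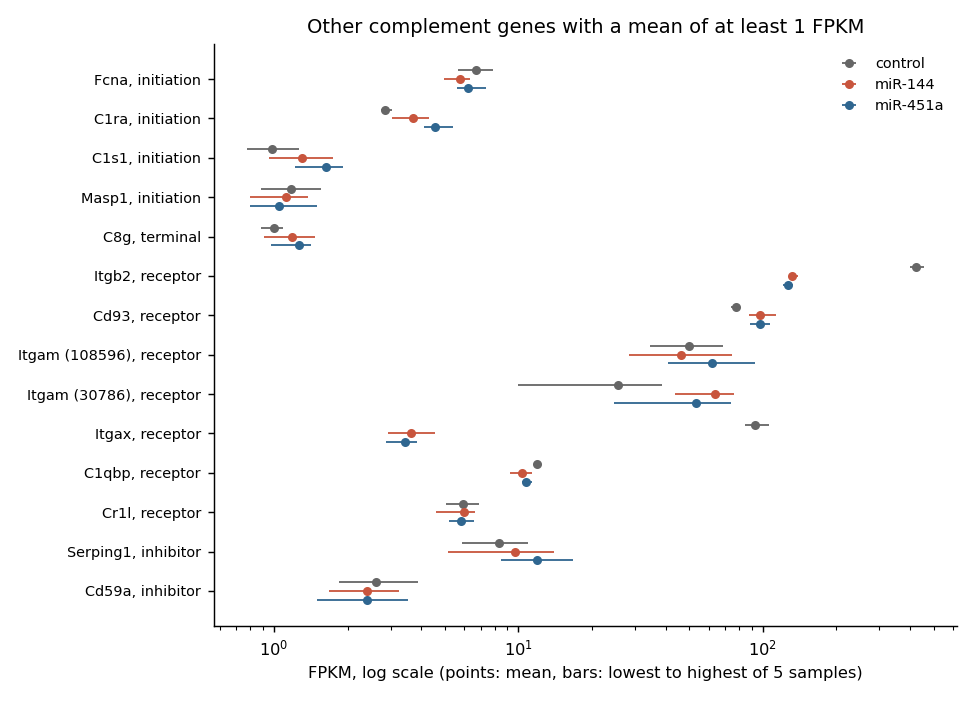
FPKM on a log axis of 14 rows of other complement genes that averaged 1 FPKM or more, grouped by role, with points for the mean and bars from the lowest to the highest of 5 samples. Itgax and Itgb2 stand lower in both miRNA groups than in control, while Fcna, Masp1, Cr1l, Serping1 and Cd59a overlap between the groups.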

How the data were processed

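RNA-seq of sorted TAMs was analysed in 15 samples. The authors deposited FPKM per gene and sample from Illumina sequencing. The processing notes name FastQC 0.11.2, STAR and StringTie without their roles, and the genome build and annotation are not given in the sources used here. The identifiers matched GENCODE M21 for 99.7% of 55335 genes, and coordinates are from that release. A gene value fitted a length-weighted sum over transcripts divided by the merged exon length, for 98.9% of 140513 values (4% by chance, 5.03% with 1 base more), so it depends on how fragments were split between transcripts.

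Log2(FPKM + 1) was modeled with limma 3.58.1 (R 4.3.3), using 1 fit for the 3 groups and a trend of variance on level. Adjusted p-values are Benjamini-Hochberg values over the genes averaging 1 FPKM or more. Genes under that mean came from the same fit over all 29540 genes above 0. The step was tested on simulated data. Steps between low values gave the implied depth, but 42.8% to 55.8% of low values lay on a step (10% by chance), so reads were not recovered and no count test was run. Intervals and floors cover these samples or counting error only. Shared sequence was counted in 50-base stretches. Exact permutation tests used scipy 1.17.1, and Python 3.11.15, numpy 2.4.6, pandas 2.3.3 and matplotlib 3.10.9 were also used.

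The members, the list of other complement genes and the cell type markers were chosen with earlier results of these data known. Named genes were the 9 members, each list gene averaging 1 FPKM or more, markers on which a result turns, and the 3 genes most like the C1q genes. Hc, C2, C6, C8a, C9, Vsig4, C4a, Colec11, Cd46, Cd55, Cfhr2, Gm20547 and C5ar2 fall outside that rule and were named after their values were seen.

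Same-numbered samples were checked for pairing. Of 5 numbers, 1, 3 and 4 had a correlation of deviations over 0.1 in the comparisons of miR-144 with control, miR-451a with control and miR-451a with miR-144. The check did not show that same-numbered samples were unrelated. The numbers were not used as pairs in the main fit, and a fit with the number as a block was run as an alternative. The alternatives tried were another pseudocount (0.1), another minimum mean (5 FPKM) or none, TPM, quantile normalization, centring on the median, the replicate block, a fit with no trend or of the compared groups alone, a minimum log2 fold change of 1 and each sample left out. The values of 1 list gene and the matches of 1 motif are not reported here, while the list counts include that gene. Robust moderation was added after the C5ar1 values were seen.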

Additional observations from a re-analysis of the deposited data

Results flagged for a closer look

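Outlying samples were looked for in 81 groups of 5 samples, by the gap of the highest or lowest sample over the range of the group (critical value 0.71). These were the 3 groups of 27 rows, namely the 9 members, the 15 list rows averaging 1 FPKM or more and C2, C4a and C5ar2, which were added after their values were seen. The other list rows were not scanned. Chance gives about 1 in 20, and 1 was found in the 72 groups of the first 24 rows and 2 in the 9 groups of the added genes. C5ar1 in miR-451a replicate 5 was at 19.7 FPKM, whereas the next sample was at 158, a gap of 0.946 of the range. C5ar2, the second C5a receptor, was at 2.78 FPKM in control replicate 1 and at most at 0.139 in the other 4 control samples (0.978 of the range). C5ar2 was also at 0.305 FPKM in miR-451a replicate 1, with the next sample at 0.123 (0.756 of the range). C5ar2 was called in no comparison (adjusted p = 0.415 and 0.446 against control by limma).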

How the results depend on the processing

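Of 669 member fold changes recomputed under up to 25 alternatives, 0 reversed a called direction, 666 kept their side of the threshold, 2 were lost (Cfb under quantile normalization, in both comparisons with control) and 1 was gained (C5ar1 without miR-451a replicate 5). Requiring a log2 fold change of at least 1 left 2 members for miR-144 and 1 for miR-451a, 4 and 4 other complement genes, and 888 and 944 of all genes, in place of 7668 and 7804. A minimum mean of 5 FPKM left 6 and 6 other complement genes of 10 tested, and 4776 and 4821 of 6639 genes.

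The scaling moved the split of the other complement genes. Against control, 11 rose and 3 fell in miR-144, and 8 rose and 3 fell in miR-451a, but the counts were 4 and 17, and 3 and 20 (23 genes called) under median centring, which shifts genes near 0 by construction, as 13 and 16 of those lower calls were under a mean of 1 FPKM. By the same shift the calls of C2 and Cd46 in both comparisons, of Colec11, Cd55 and Cfhr2 for miR-144 and of Vsig4 for miR-451a were lost and C4a turned lower. Under quantile normalization the counts were 7 and 5, and 6 and 6, and under TPM 11 and 2 in miR-451a. Of all called genes 70.1% and 70.3% were higher, 50% and 49.6% under median centring and 52.3% and 52.3% under quantile normalization.

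With each sample left out in turn, 9 to 9, 8 to 9 and 0 to 0 members were called, 13 to 15, 9 to 13 and 0 to 0 other complement genes, and 7385 to 7682, 7538 to 7817 and 0 to 2 of all genes, in the comparisons of miR-144 with control, miR-451a with control and miR-451a with miR-144. With the replicate number as a block, 9, 8 and 0 members, 14, 11 and 0 other complement genes and 7711, 7859 and 0 of all genes were called, and samples correlated best with their own number in 1, 3 and 4 of 5 cases. The block moved no count by over 1.5 times, but it changed which other complement genes were called: for miR-144 Fcna was gained as lower and Colec11 was lost (10 higher, 4 lower), and for miR-451a Serping1 was gained and Vsig4 was lost. The split of fragments between transcripts and the low levels of C4b and Cfb limit their values.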

Other observations

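Within groups, the samples that were high in one C1q gene were mostly high in the others. Over the 15 deviations of log2(FPKM + 1) from the group means, which share library and depth, the correlation was 0.93 between C1qb and C1qc, 0.85 between C1qa and C1qc and 0.80 between C1qa and C1qb, and it was −0.77 between C3 and Cfp. These are descriptions over libraries, with no test. The genes most like the mean of the C1q genes by this measure, among 11419, were Itsn1 (0.94), Lfng (0.93) and Pebp1 (0.92). Between the groups they did not all go the way of C1q: Lfng, a glycosyltransferase of the Notch pathway, averaged 14.5, 38.4 and 39.8 FPKM in control, miR-144 and miR-451a, while Itsn1 averaged 7.91, 6.84 and 7.31 and Pebp1 51.7, 41.7 and 42.2.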
